A study of Mus musculus with 20 samples.

Results

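Bile acid synthesis in the liver was described through 10 genes, of 19661 genes measured by a probe set that belongs to a single gene. They were chosen by name, for their place in the pathway, although earlier results of these data were known. They are the enzyme genes *Cyp7a1*, *Cyp8b1*, *Cyp27a1*, *Cyp7b1*, *Cyp39a1*, *Hsd3b7* and *Baat*, and the nuclear receptor genes *Nr1h4*, *Nr0b2* and *Nr5a2*. Each of the 10 had exactly 1 such probe set, and all 10 gave a value on every array. Whole livers of *Crem* KO and WT mice were compared on 20 arrays (GeneChip Mouse Gene 1.0 ST) with 1 mouse each, so that the groups were KO at 12 h, WT at 12 h, KO at 0 h and WT at 0 h, with 5 mice in each. By their labels all mice were untreated, 8 weeks old, of the same mixed 129Pas x C57Bl/J strain, fed freely and kept with lights on at 7 am, the 0 h time, and off at 7 pm, the 12 h time. The KO allele carries a neomycin insertion that disrupts both DNA-binding domains of CREM, a transcription factor of the cAMP pathway, in every cell of the body.

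Bile acids are made from cholesterol in hepatocytes. The classic route starts with 7α-hydroxylation of cholesterol by CYP7A1, the rate-limiting step, and CYP8B1 adds the 12α-hydroxyl group that sets the proportion of cholic acid. The alternative route starts with side chain oxidation by CYP27A1 and continues with CYP7B1, while CYP39A1 acts on side-chain hydroxylated sterols. HSD3B7 acts on the sterol ring in all routes, and BAAT joins the finished acid to taurine or glycine. The bile acid receptor FXR, encoded by *Nr1h4*, induces SHP, encoded by *Nr0b2*, which represses *Cyp7a1* and *Cyp8b1*, and LRH-1, encoded by *Nr5a2*, binds the promoters of target genes of SHP. *Cyp7a1* is also a textbook rhythmic gene of the liver.

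The promoters of *Cyp8b1* and *Nr0b2* are shown because each holds a match to the short site that LRH-1 binds. They are the 250 bases before the transcription start in the RefSeq promoters of GRCm38.p6, 5′ to 3′ in the direction of the gene. The *Cyp8b1* window is chr9:121916306-121916555 on the minus strand, and the *Nr0b2* window is chr4:133553126-133553375 on the plus strand. Capitals mark the motif matches.
Cyp8b1: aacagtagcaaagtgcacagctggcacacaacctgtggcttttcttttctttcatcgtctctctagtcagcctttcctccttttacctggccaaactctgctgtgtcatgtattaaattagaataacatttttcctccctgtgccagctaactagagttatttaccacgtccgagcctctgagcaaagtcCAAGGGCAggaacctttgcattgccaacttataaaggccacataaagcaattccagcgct
Nr0b2: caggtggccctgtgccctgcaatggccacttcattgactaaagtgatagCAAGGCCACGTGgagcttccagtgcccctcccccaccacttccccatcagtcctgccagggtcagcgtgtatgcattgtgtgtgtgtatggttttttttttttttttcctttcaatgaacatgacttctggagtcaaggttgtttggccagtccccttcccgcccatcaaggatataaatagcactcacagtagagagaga
The LRH-1 site was searched as CAAGGNCA on both strands and occurred in 5.53% of 32851 promoter windows of this length. In *Cyp8b1* it lay at bases -60 to -53 from the start as CAAGGGCA, and in *Nr0b2* at -201 to -194 as CAAGGCCA. In *Nr0b2* it overlapped an E-box, searched as CACGTG, at -195 to -190, a motif found in 6.02% of the windows. The promoter table had entries for 6 of the 10 genes, with 7 windows, since *Nr5a2* has a pair of starts. The CREM response element TGACGTCA (1.55% of windows) and its core TGACG (17.8%) were found in 0 of these 7 windows, as were the D-box TTANGTAA (2.06%), the inverted repeat bound by FXR (0.00609%) and the direct repeat bound by HNF4 (0.6%). *Cyp7a1*, *Cyp7b1*, *Cyp39a1* and *Baat* had no entry. The FXR and HNF4 repeats were each searched only as a single full-length pattern. Shorter or variant sites of either factor were not searched, so the windows, that of *Cyp8b1* included, may still hold them.

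Array medians of log2 expression lay between 7.07 and 7.24, and arrays correlated pairwise at 0.969 to 0.994 over 25689 probe sets. WT mouse 80 had the highest median. It lay at -31.4 on the second principal component, an axis of joint variation over all probe sets, with the next lowest array at -11.3. The *Crem* probe set read 7.60 ± 0.17 in KO and 7.97 ± 0.06 in WT livers at 12 h, and 7.85 ± 0.30 in KO and 8.32 ± 0.17 in WT livers at 0 h (SD, n = 5 each). The array labelled KO mouse 1 read 8.17 and lay within the WT range at 0 h. An RNA list of the testis study gives the number 1 to a pre-pubertal WT mouse, but it numbers its pre-pubertal mice as its rows. The shared number alone thus does not show that it is the same mouse. The genotype and age of this array remain in doubt, and it was kept under its label, with values also given without it. The probe set was not examined for which probes lie in the disrupted region, so its level is no check of genotype by itself. The mean of 7 hepatocyte markers was 13.5 to 13.7 in all 20 livers. *Xist*, transcribed from the inactive X of females, was at 4.73 to 5.81 and the Y-linked *Eif2s3y* at 9.18 to 10.5 on every array. The 0 h arrays came from batches 1 to 4, each with both genotypes, and all 12 h arrays from batch 5, so time and batch cannot be told apart, while genotypes can be set against each other within batches.

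**Figure D1:**
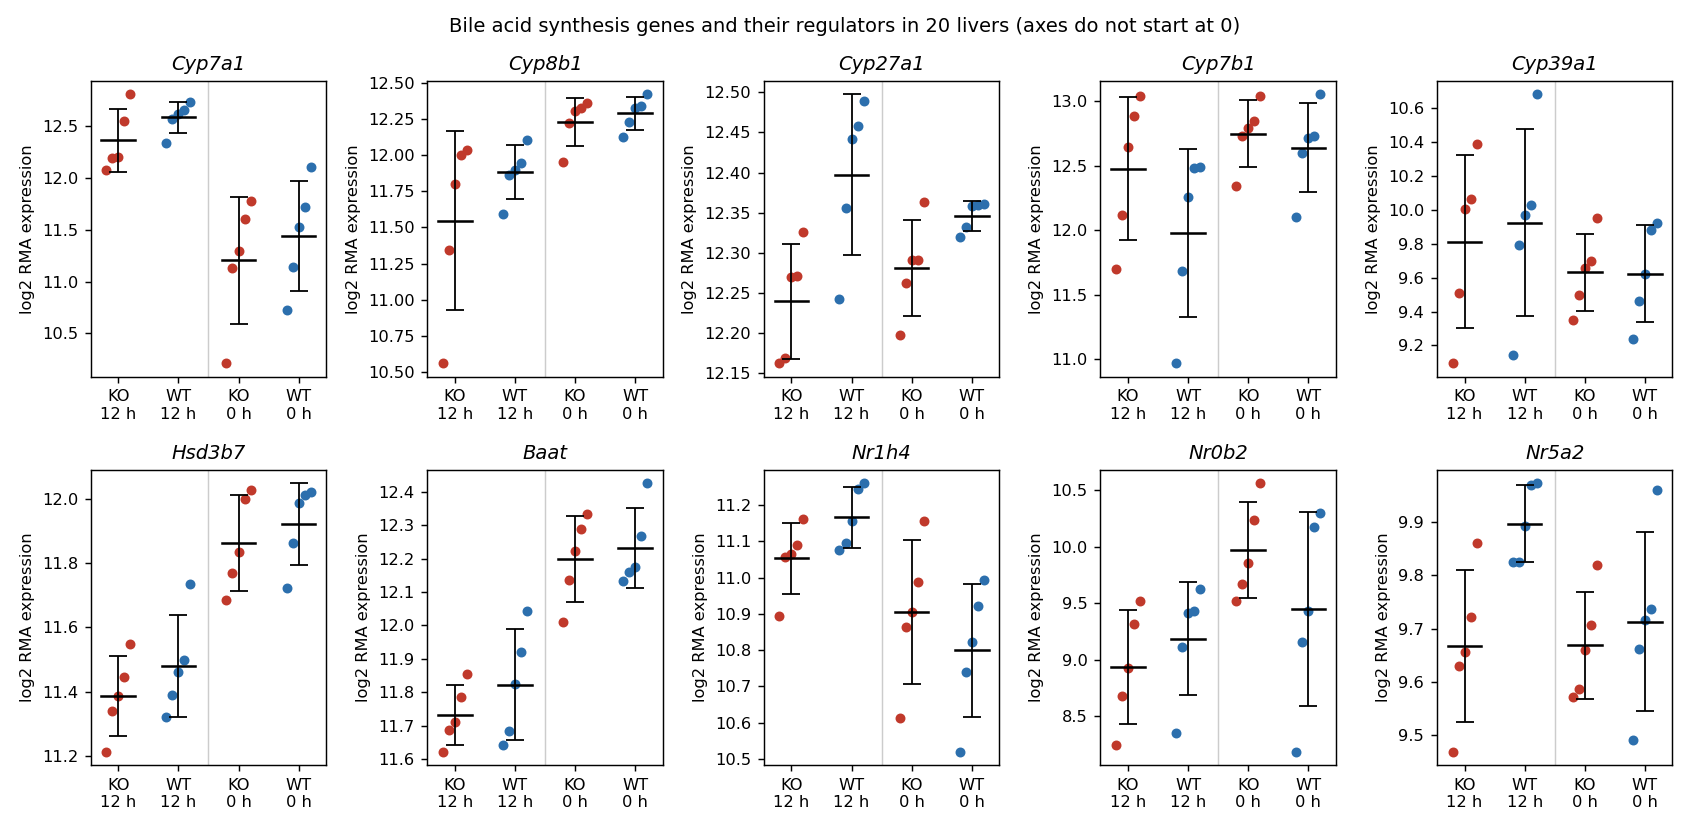
Log2 RMA expression (vertical axes, which do not start at 0) of the 10 genes in 20 livers, 5 per group, with KO in red and WT in blue. Points are mice, horizontal lines are group means and bars are 1 SD. *Cyp7a1* at 12 h lay above 0 h with no overlap in either genotype, and *Baat* lay below with no overlap, while KO and WT overlapped in every panel at both times.

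The first comparison asked how the pathway differed between the end and the start of the light phase in each genotype. *Cyp7a1* rose in both, *Hsd3b7* and *Baat* fell in both, and *Cyp8b1* and *Nr0b2* fell in KO livers. *Nr1h4* rose in WT livers. For *Cyp8b1*, *Nr0b2* and *Nr1h4* the KO and WT changes were not shown to differ. In KO livers 5 of the 10 genes had a Benjamini-Hochberg adjusted p under 0.05 in limma, the threshold for a call, (1 higher and 4 lower), against 20.3% of all probe sets (10.6% higher and 9.69% lower). In WT livers 4 of 10 passed (2 higher and 2 lower), against 27.8% of all probe sets (13.5% higher and 14.3% lower). With each array centred on its median the split of all calls moved to 14.3% higher and 6.24% lower in KO, and to 20.6% higher and 7.77% lower in WT, while the 10 genes gave 1 higher and 4 lower in KO and 3 higher and 2 lower in WT. The median change of the 10 genes was -0.16 in KO and -0.11 in WT, against -0.02 and -0.03 over all probe sets.

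*Cyp7a1* showed the largest called change of the 10 genes in WT livers, and in KO livers with all arrays. In KO livers at 12 h its log2 expression was 12.07, 12.19, 12.21, 12.55 and 12.81, against 10.21, 11.13, 11.30, 11.61 and 11.78 in KO livers at 0 h. In WT livers at 12 h it was 12.34, 12.57, 12.62, 12.66 and 12.73, against 10.73, 11.14, 11.53, 11.72 and 12.11 in WT livers at 0 h. All mice at 12 h thus stood above all mice at 0 h of their genotype, and the mice were closer together at 12 h. The difference was 1.16 in KO (standard error 0.24, 2.23-fold, adjusted p = 0.0015 in limma) and 1.14 in WT (2.21-fold, adjusted p = 0.0014). The exact two-sided permutation test gave 0.0079 in each genotype, the smallest p that 5 against 5 mice allow. Without KO mouse 1, the lowest array, the KO difference was 0.91 (adjusted p = 0.0037), smaller in size than the -1.06 of *Nr0b2* (adjusted p = 0.0428). Without WT mouse 80, the lowest WT array, the WT difference was 0.96 (adjusted p = 0.00546 in limma).

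*Cyp8b1* differed in the direction opposite to *Cyp7a1*. Its values in KO livers at 12 h were 10.56, 11.34, 11.80, 12.00 and 12.03, against 11.95, 12.22, 12.30, 12.32 and 12.36 in KO livers at 0 h. In WT livers they were 11.59, 11.86, 11.90, 11.94 and 12.11 at 12 h, against 12.12, 12.23, 12.33, 12.34 and 12.42 at 0 h. The WT groups did not overlap, although their nearest mice were close, and the KO groups overlapped at a single 0 h mouse, KO mouse 1, without which the KO difference was -0.75 (adjusted p = 0.0112). *Cyp8b1* fell by 0.68 on the log2 scale in KO (1.61-fold, adjusted p = 0.0126 in limma). KO mouse 55 stood well below the rest of its group, and without it the KO fall was 0.44 (adjusted p = 0.0186). In WT the difference of -0.41 (95% confidence interval -0.80 to -0.01) had an adjusted p of 0.113, although the exact permutation test gave p = 0.0079. It passed when only WT arrays were fitted (adjusted p = 0.00977) and without KO mouse 55 (adjusted p = 0.014), which both leave that mouse out of the shared spread. The KO change minus the WT change was -0.28 (95% confidence interval -0.83 to 0.28, adjusted p = 0.877 in limma), and -0.03 without KO mouse 55.

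The opposite differences of these 2 enzymes of the classic route put their difference on the log2 scale on either side of zero at the 2 times. *Cyp8b1* minus *Cyp7a1* was -0.82 ± 0.56 in KO and -0.71 ± 0.11 in WT livers at 12 h, and 1.02 ± 0.45 in KO and 0.84 ± 0.45 in WT livers at 0 h (SD, n = 5 each). Probe sets differ in brightness, so the sign of such a value carries no meaning and only the shift between times can be read.

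*Hsd3b7* and *Baat*, which act in steps shared by all routes, were lower at 12 h. Other enzyme genes of the pathway went both ways and are given further below. *Hsd3b7* was at 11.21, 11.34, 11.39, 11.44 and 11.55 in KO livers at 12 h, against 11.68, 11.77, 11.83, 12.00 and 12.03 in KO livers at 0 h. In WT livers it was at 11.32, 11.39, 11.46, 11.50 and 11.74 at 12 h, against 11.72, 11.86, 11.99, 12.01 and 12.02 at 0 h. The KO groups were separate and the WT groups overlapped by a single mouse, WT mouse 167. It fell by 0.48 in KO (adjusted p = 0.00052 in limma) and fell by 0.44 in WT (adjusted p = 0.0010). *Baat*, for conjugation, was at 11.62, 11.69, 11.71, 11.78 and 11.85 in KO livers at 12 h, against 12.01, 12.14, 12.22, 12.29 and 12.34 in KO livers at 0 h. In WT livers it was at 11.64, 11.68, 11.83, 11.92 and 12.04 at 12 h, against 12.13, 12.16, 12.17, 12.27 and 12.43 at 0 h. Neither genotype overlapped between times. *Baat* fell by 0.47 in KO (adjusted p = 0.00036 in limma) and fell by 0.41 in WT (adjusted p = 0.0011).

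In these 2 genes the few 0 h mice of batches 1 and 4 also differed, in opposite directions. Batch 1 held 2 KO mice and 1 WT mouse, and batch 4 held 1 mouse of each genotype. Differences between batches and between mice cannot be told apart here, and were not tested. In batch 1 *Hsd3b7* was at 11.73 in KO and 11.72 in WT, the lowest batch of each genotype at 0 h. In batch 4 it was 12.03 in KO and 11.99 in WT. *Baat* was at 12.31 in KO and 12.43 in WT in batch 1, the highest batch of each genotype. In batch 4 it was 12.01 in KO and 12.13 in WT. With genotype removed, the 0 h batch means spanned 0.27 for *Hsd3b7* and 0.28 for *Baat*, less than their changes with time. The part of batch 5 in the changes with time was not tested. The changes in both genotypes were larger than this span in 5 of the 10 genes, *Cyp7a1* (span 0.56), *Cyp8b1* (0.17), *Cyp27a1* (0.02), *Hsd3b7* and *Baat*. For *Cyp27a1* those changes were only -0.04 in KO and 0.05 in WT, and neither passed. The share of all probe sets with changes beyond their span was not computed. The 0 h batches set no bound on an offset of batch 5.

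**Figure D2:**
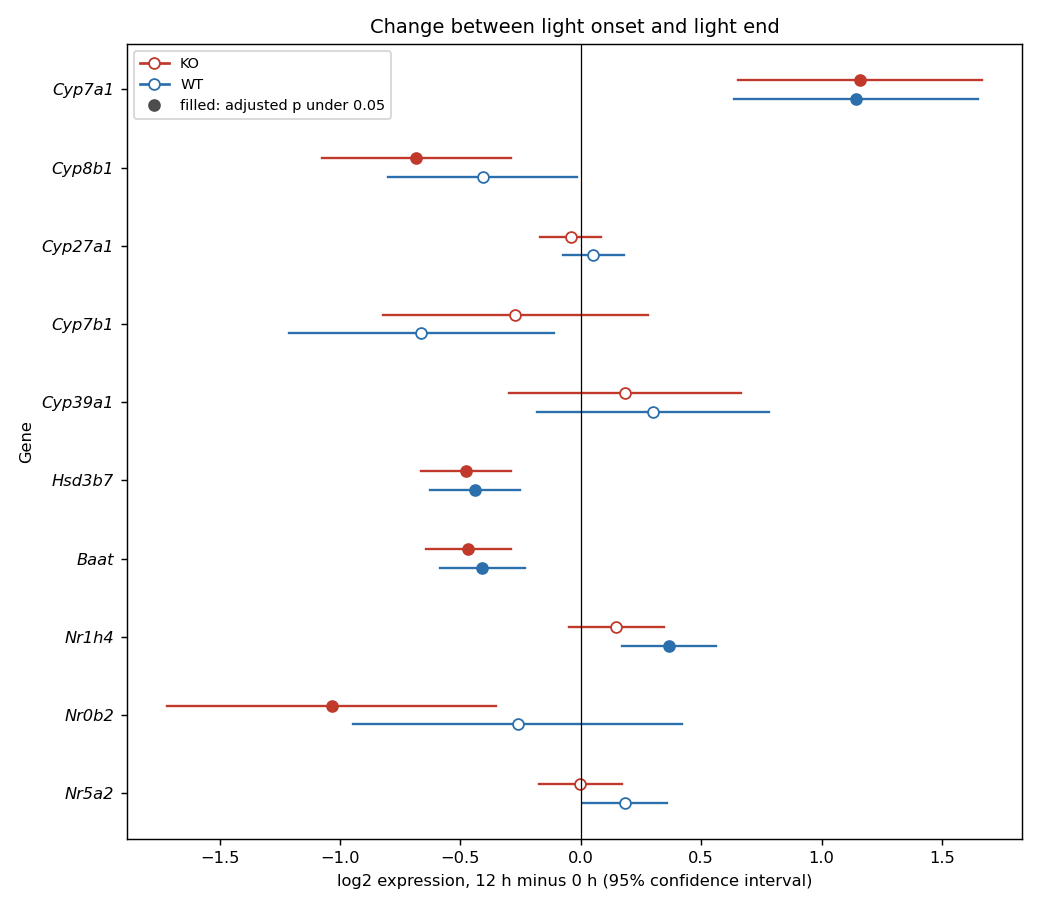
Log2 difference between 12 h and 0 h (horizontal axis) for each gene in KO (red, upper) and WT (blue, lower), with 95% confidence intervals from the fit over 20 arrays. Filled points passed at an adjusted p under 0.05, 5 in KO and 4 in WT, and the intervals of KO and WT overlap for all 10 genes.

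The enzymes of the alternative route gave no call with time. *Cyp27a1* hardly moved, with -0.04 in KO (95% confidence interval -0.17 to 0.08) and 0.05 in WT (-0.07 to 0.18). *Cyp7b1*, the oxysterol 7α-hydroxylase, differed by -0.27 in KO (adjusted p = 0.517) and by -0.66 in WT (adjusted p = 0.0661). It was one of the most variable of the 10 genes at 12 h. Its values there were 11.70, 12.12, 12.64, 12.88 and 13.04 in KO livers, against 10.97, 11.68, 12.26, 12.48 and 12.49 in WT livers. WT mouse 170 stood lowest, and without it the WT difference with time was -0.41. The WT difference passed in 4 of 20 runs that left out 1 array, with adjusted p-values of 0.037 without WT mouse 147, 0.0381 without WT mouse 167, 0.0402 without WT mouse 168 and 0.047 without KO mouse 166, and also with only the brighter probe sets kept, those at or above the median level (adjusted p = 0.0497). *Cyp39a1* ranged from 9.09 to 10.39 in KO and from 9.14 to 10.68 in WT livers at 12 h, a spread far above its differences with time of 0.18 in KO and 0.30 in WT.

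Among the receptors, *Nr0b2* was at 8.24, 8.68, 8.93, 9.31 and 9.52 in KO livers at 12 h, against 9.52, 9.67, 9.86, 10.23 and 10.56 in KO livers at 0 h. In WT livers it was at 8.35, 9.11, 9.42, 9.44 and 9.62 at 12 h, against 8.18, 9.16, 9.43, 10.18 and 10.30 at 0 h. The KO groups met without overlapping, whereas in WT the single lowest mouse was WT mouse 145 at 0 h. *Nr0b2* fell by 1.03 on the log2 scale in KO (standard error 0.33, 2.05-fold, adjusted p = 0.029 in limma, exact permutation p = 0.0079). The WT difference was -0.26 (adjusted p = 0.588), and single arrays moved it to -0.58 without WT mouse 145 (adjusted p = 0.145) and to -0.05 without WT mouse 78 (adjusted p = 0.931). The KO and WT changes were not shown to differ, since their difference was -0.77 with a 95% confidence interval of -1.74 to 0.19 (adjusted p = 0.791). The KO call was lost with an intensity trend and robust prior (adjusted p = 0.0622), and without KO mouse 144, 76, 109 or 166 (adjusted p = 0.0818, 0.0652, 0.0634 and 0.0837).

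*Nr1h4* was at 10.89, 11.06, 11.06, 11.09 and 11.16 in KO livers at 12 h, against 10.61, 10.86, 10.90, 10.99 and 11.15 in KO livers at 0 h. In WT livers it was at 11.08, 11.10, 11.15, 11.24 and 11.26 at 12 h, against 10.52, 10.74, 10.82, 10.92 and 10.99 at 0 h. The WT groups were separate and the KO groups overlapped. It rose by 0.37 in WT (standard error 0.09, adjusted p = 0.0062 in limma), and the KO difference was 0.15 (adjusted p = 0.294). Without WT mouse 80, the lowest WT array, the WT rise was 0.30 (adjusted p = 0.0228 in limma). Here too the difference between the changes did not pass (-0.22, 95% confidence interval -0.50 to 0.06, adjusted p = 0.792). *Nr5a2* differed by -0.0016 in KO and by 0.18 in WT (adjusted p = 0.106). The WT value of *Nr5a2* passed without WT mouse 146 (0.25, adjusted p = 0.0318) and with each array centred on its median (0.27, adjusted p = 0.0235). With groups compared by overlap alone, 4 of 10 genes were separate in KO (*Cyp7a1*, *Hsd3b7*, *Baat* and *Nr0b2*), against 16.4% of all probe sets, and 4 of 10 in WT (*Cyp7a1*, *Cyp8b1*, *Baat* and *Nr1h4*), against 17.5%.

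The second comparison asked whether loss of *Crem* changed the pathway. Of the 10 genes 0 passed in limma at 12 h (0.0234% of all probe sets passed), 0 at 0 h (0% of all), 0 over both times (0.0117%) and 0 for the difference of the genotype effect between times (0% of all). At an unadjusted p under 0.05, 2 of the 10 genes remained at 12 h, *Cyp27a1* and *Nr5a2*, against 12.5% of all probe sets. At 0 h there were 0 of 10, against 4.47%, over both times the same 2 genes, against 9.88%, and for the difference of effects 0 of 10, against 6.84%. In 9 of the 10 genes the estimate at 12 h was negative, where 49.6% of all probe sets were below 0, and *Cyp7b1* was the exception. The genotypes were separate in 0 of the 10 genes, against 2.42% of all probe sets at 12 h and 0.728% at 0 h. The median of the 10 estimates was -0.14 at 12 h and -0.04 at 0 h.

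*Cyp27a1* was at 12.16, 12.17, 12.27, 12.27 and 12.33 in KO livers, against 12.24, 12.36, 12.44, 12.46 and 12.49 in WT livers at 12 h. At 0 h it was at 12.20, 12.26, 12.29, 12.29 and 12.36 in KO livers, against 12.32, 12.33, 12.36, 12.36 and 12.36 in WT livers. The genotypes overlapped at both times, at 12 h through the lowest WT mouse, which stood below 3 of the KO mice, and at 0 h through the highest KO mouse, which stood above all WT mice. Over both times the KO estimate was -0.11 (standard error 0.04, 95% confidence interval -0.20 to -0.02), with an adjusted p of 0.419 in limma. The exact permutation test of mice within times gave p = 0.0032 for this gene alone, unadjusted for the 10 genes. Within each of the 5 batches the KO mean was below the WT mean, with a difference of -0.16 in the 12 h batch and of -0.10 to -0.04 in the 0 h batches. Each 0 h batch holds only 1 or 2 mice of a genotype. The share of all probe sets with the same sign in every batch was not computed. *Cyp27a1* encodes the enzyme that opens the alternative route, and its spread between mice was the smallest of the 10 genes at 0 h.

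*Nr5a2* was at 9.47, 9.63, 9.66, 9.72 and 9.86 in KO livers, against 9.82, 9.83, 9.89, 9.97 and 9.97 in WT livers at 12 h, where only the highest KO mouse reached the WT range. The estimate at 12 h was -0.23 (standard error 0.08, 95% confidence interval -0.40 to -0.06, adjusted p = 0.260 in limma, exact permutation p = 0.0238). At 0 h it was -0.04 (-0.22 to 0.13), with KO livers at 9.57 to 9.82 and WT livers at 9.49 to 9.96. Within the 0 h batches the differences ran from -0.26 in batch 1 to 0.09 in batch 3. The change of this effect between times was -0.19 (95% confidence interval -0.43 to 0.06, adjusted p = 0.801), so the times were not shown to differ.

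For the rate-limiting enzyme the genotype estimate was -0.22 at 12 h (95% confidence interval -0.73 to 0.29) and -0.24 at 0 h (-0.74 to 0.27). The 0 h value was 0.01 without KO mouse 1 and -0.42 without WT mouse 80. Within batch 2 *Cyp7a1* was 1.50 lower in that mouse than in the WT mouse of the batch, whereas the difference was -0.07 in batch 1, -0.12 in batch 3 and 0.47 in batch 4. *Cyp8b1* was -0.33 at 12 h (-0.73 to 0.06), and ran from -0.45 without KO mouse 166 to -0.09 without KO mouse 55. *Cyp7b1* was 0.50 at 12 h (-0.05 to 1.05, adjusted p = 0.451, exact permutation p = 0.222), and ran from 0.25 without WT mouse 170 to 0.70 without KO mouse 166. *Nr0b2* was -0.25 at 12 h (-0.93 to 0.43) and 0.52 at 0 h (-0.16 to 1.20), and the 0 h value ran from 0.20 without WT mouse 145 to 0.73 without WT mouse 78. For *Hsd3b7*, *Baat* and *Nr1h4* the intervals at either time lay between -0.31 and 0.30, while for *Cyp39a1* they reached -0.59.

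**Figure D3:**
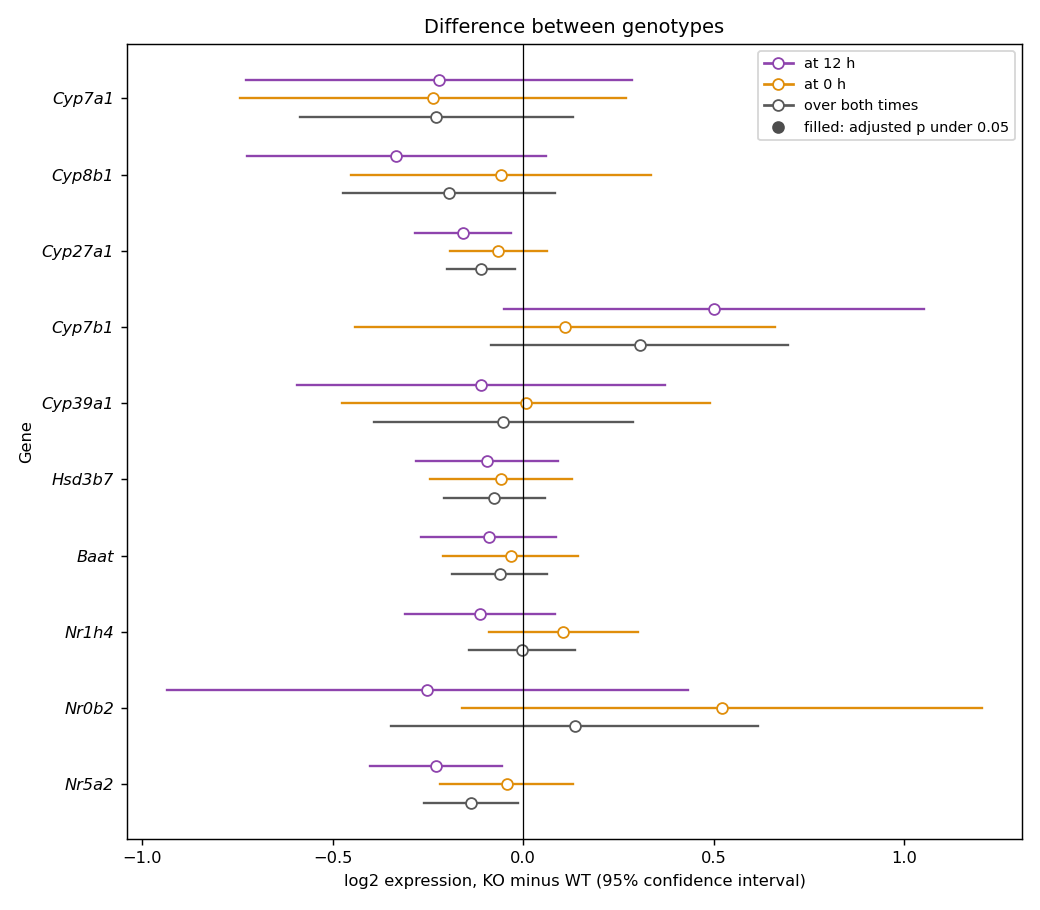
Log2 difference between KO and WT (horizontal axis) for each gene at 12 h (purple), at 0 h (orange) and over both times (grey), with 95% confidence intervals. No point is filled, as 0 of 10 genes passed in any of the 3 comparisons, and the interval excludes zero only for *Cyp27a1* and *Nr5a2* at 12 h and over both times.

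Differences between mice of the same group were then followed, with group means removed, in 6 relations chosen from textbook regulation. *Cyp8b1* went with *Cyp7a1* (Pearson's r = 0.426, permutation p = 0.0103, adjusted p = 0.062, Spearman's rho = 0.526, permutation p = 0.0206, adjusted p = 0.104, n = 20), and r was 0.417 without KO mouse 1 and WT mouse 80. *Cyp8b1* went against *Nr0b2* (r = -0.417, permutation p = 0.0356, adjusted p = 0.107, rho = -0.478, permutation p = 0.0345, adjusted p = 0.104), and r was -0.496 without WT mice 145 and 78. Of the 6 relations 0 passed after adjustment. Without KO mouse 55, the lowest point in *Cyp8b1*, r was 0.459 with *Cyp7a1* and -0.453 with *Nr0b2*, and without KO mouse 1 it was 0.379 and -0.438. By time, r with *Cyp7a1* was 0.475 at 12 h and 0.914 at 0 h, and r with *Nr0b2* was -0.635 at 12 h and -0.227 at 0 h, over 10 mice each, a difference that was not tested. With means of genotype within batch removed, over the 14 mice that have such a partner, r was 0.357 for *Cyp7a1* and -0.615 for *Nr0b2*. All 10 mice at 12 h are among these 14, so the values are no separate check over both times. The other 4 relations, *Nr0b2* with *Cyp7a1* (r = -0.121), *Nr1h4* with *Nr0b2* (0.252), and *Nr5a2* with *Cyp7a1* (-0.018) and with *Cyp8b1* (-0.088), had permutation p-values of 0.373 to 0.95 for r and of 0.186 to 0.984 for rho. In every group 1 mouse was both lowest in *Nr0b2* and highest in *Cyp8b1*, which was not tested. At 12 h these were KO mouse 166 and WT mouse 169, and at 0 h KO mouse 143 and WT mouse 145.

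**Figure D4:**
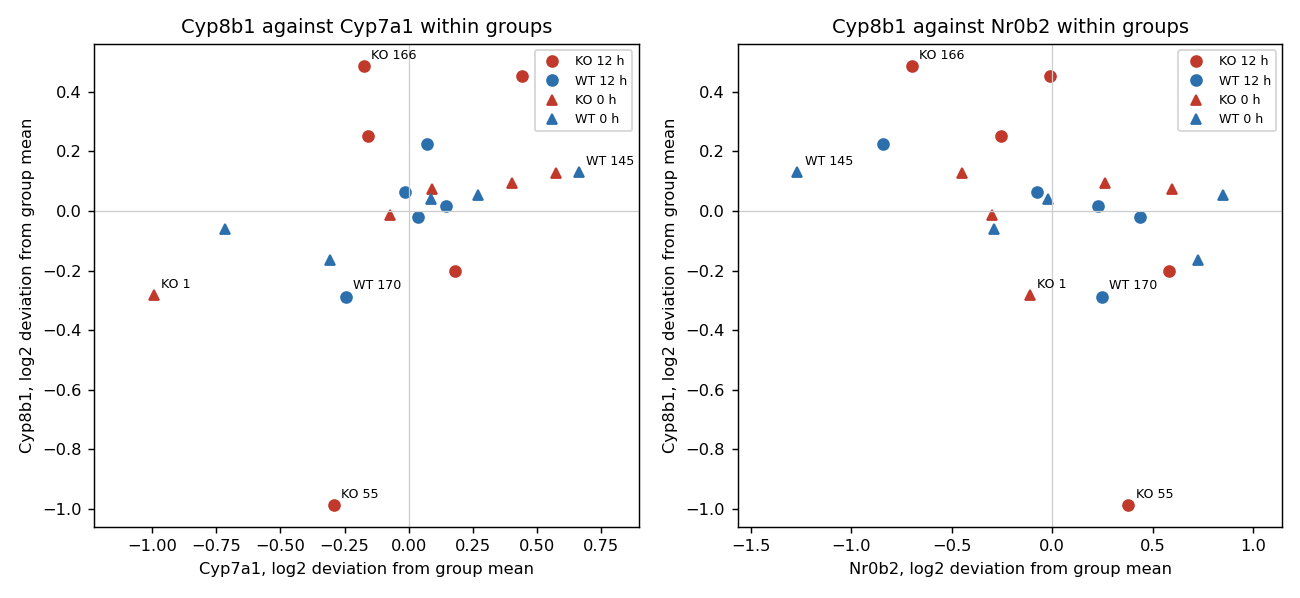
Deviation of *Cyp8b1* from its group mean (vertical axes, log2) against that of *Cyp7a1* (left) and of *Nr0b2* (right), for 20 mice, with KO in red, WT in blue, circles for 12 h and triangles for 0 h. KO mouse 55 lies lowest in both panels, and Pearson's r was 0.426 on the left and -0.417 on the right.

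The genes whose deviations were most like those of *Cyp7b1*, *Cyp7a1*, *Cyp8b1* and *Nr0b2* were listed as a description over the 20 mice. For *Cyp7b1* they were *C6* (r = 0.922), *Elovl3* (0.890), *Scp2* (0.847), *Slc14a2* (0.820) and *Rarres1* (0.813), and r was 0.743 to 0.907 without WT mouse 170. In that mouse *C6*, a complement component, was at 10.01, against 11.1 to 11.5 in the other WT livers at 12 h. *Elovl3* is a fatty acid elongase, and SCP2 takes part in shortening the bile acid side chain. For *Cyp7a1* they were *Elp4* (0.833), *Dlgap2* (0.811), *Mpp7* (0.772), *Sult2a8* (0.770), a bile acid sulfotransferase, and *Samhd1* (0.754). Their r was 0.687 to 0.84 without KO mouse 1. For *Cyp8b1* they were *Agxt2* (0.799), *Ces1d* (0.795), *Mir129-2* (0.788), *Ccdc180* (0.787) and *4933409G03Rik* (0.783), and r was 0.635 to 0.685 without KO mouse 55. For *Nr0b2* they were *Irf1* (0.784), *Khnyn* (0.780), *Tmem225* (0.770), *Ppme1* (0.757) and *Epha2* (0.753), and r was 0.666 to 0.787 without WT mouse 145. Some of the genes named read low, such as *Elp4*, *Tmem225* and *4933409G03Rik*, which stayed below the lowest array median of 7.07.

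Other genes of the pathway were read from lists of textbook members. Of 14 other synthesis enzymes, all measured, 2 rose and 4 fell between 0 h and 12 h in KO, and 2 rose and 3 fell in WT, with a median of -0.12 in KO and -0.15 in WT. These 6 of 14 calls in KO and 5 of 14 in WT stand beside 20.3% of all probe sets in KO and 27.8% in WT, and the all-probe-set medians were -0.02 in KO and -0.03 in WT, as for the lists that follow. *Cyp2c70*, which makes muricholic acids in the mouse, fell by 0.44 in KO and fell by 0.35 in WT. *Acox2*, a peroxisomal oxidase of the bile acid side chain, fell by 0.52 in KO and fell by 0.31 in WT. *Abcd3*, a peroxisomal transporter of bile acid intermediates, rose by 0.25 in KO and by 0.41 in WT, and *Slc27a2* by 0.23 in KO and 0.28 in WT.

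Of 22 other regulators 20 were measured, and 14 rose and 2 fell in each genotype, with a median of 0.58 in KO and 0.67 in WT. The list includes genes of the clock and its output, so these counts are no measure of bile acid regulators in general. *Dbp*, a clock output factor that binds D-boxes, rose by 2.99 in KO and 2.80 in WT, and *Nr1d2*, which encodes the clock repressor REV-ERBβ, by 2.87 in KO and 2.59 in WT. The other D-box binding factors *Tef* and *Hlf* rose by 1.81 and 0.62 in KO, and by 1.70 and 0.50 in WT. The repressor of D-box elements, *Nfil3*, fell by 1.65 in KO and fell by 1.47 in WT, and *Nr1d1*, which encodes REV-ERBα, rose by 1.57 in KO and 1.38 in WT. *Nr1h3*, encoding the oxysterol receptor LXRα, fell by 0.29 in KO and fell by 0.23 in WT.

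Of 12 transporters, all measured, 4 rose and 1 fell in KO, and 4 rose and 3 fell in WT. The sterol exporter pair *Abcg5* and *Abcg8* rose by 1.36 and 1.16 in KO, and by 1.32 and 1.01 in WT. *Abcb11*, the bile salt export pump, fell by 0.35 in KO and fell by 0.36 in WT, whereas *Abcc2* rose by 0.63 in KO and 0.49 in WT. Of 8 genes of sterol supply 4 were measured, of which 2 rose and 2 fell in KO and 2 rose and 1 fell in WT. *Insig2*, which retains the SREBP complex, fell by 1.78 in KO and fell by 1.23 in WT. For genotype, 0 members of these lists passed in limma at either time or over both.

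Kupffer cell markers were lower at 12 h in part. The mean of 7 such markers was 9.34 to 9.68 in KO and 9.16 to 9.50 in WT livers at 12 h, and 9.55 to 9.95 in KO and 9.63 to 9.98 in WT livers at 0 h. Of the 7 markers 2 fell in KO, where 9.69% of all probe sets did, and 4 fell in WT, where 14.3% did, and their part in the changes of the bile acid genes was not tested. *C6*, named above beside *Cyp7b1*, is on that marker list and is made by hepatocytes too. In whole liver RNA, fewer cells of a type and less RNA per cell cannot be told apart. Hepatocyte markers were at 13.5 to 13.7 in all groups, and 0 marker genes passed for genotype.

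**Figure D5:**
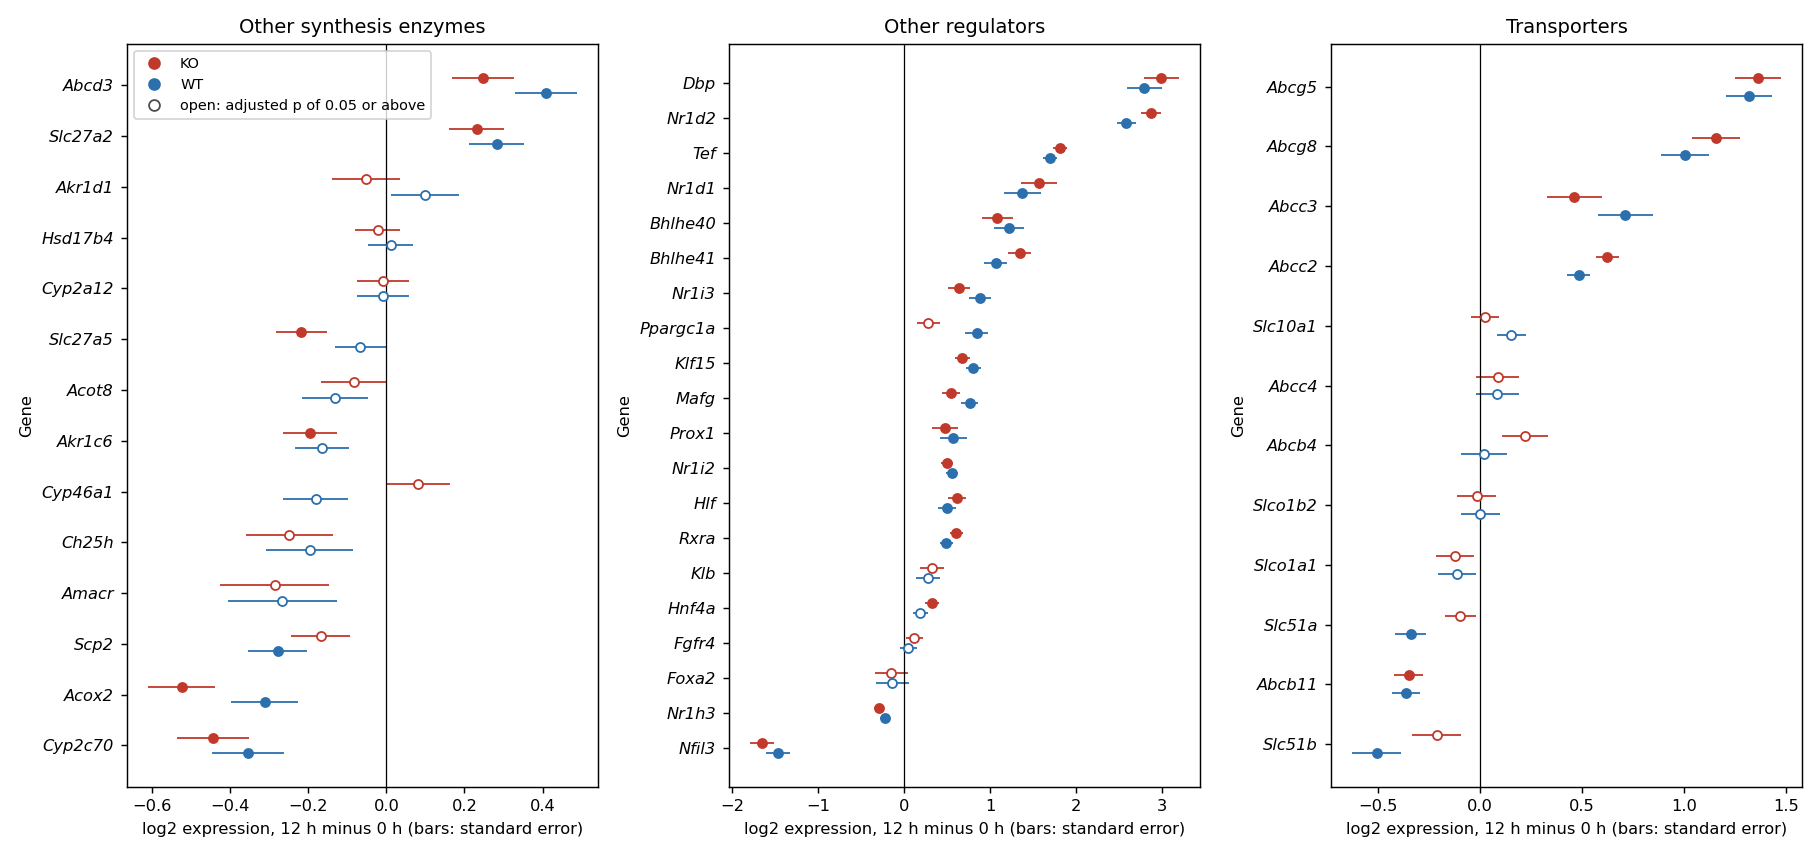
Log2 difference between 12 h and 0 h (horizontal axes, with different ranges) of the other synthesis enzymes (left), other regulators (middle) and transporters (right), in KO (red, upper) and WT (blue, lower), with standard errors. Filled points passed at an adjusted p under 0.05, which held for 16 of 20 regulators in each genotype and for 6 enzymes in KO and 5 in WT.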

How the data were processed

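The deposited values are log2 expression from RMA, which the submitters' processing notes name with no version. The methods describe RMA on core meta-probe sets with antigenomic background for testis arrays. For the livers, the settings and the arrays normalized together were not stated in these sources. Background and normalization are thus inside the values, levels of different probe sets are not comparable, and single probes could not be checked against background. Of 35557 probe sets 9868 had no value and were left out.

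Groups came from the genotype and time labels, and 4 group means were fitted over 20 arrays with limma 3.58.1 in R 4.3.3 (lmFit, eBayes), with Benjamini-Hochberg adjustment over 25689 probe sets and a threshold of 0.05. Exact permutation tests were two-sided and relations used 100000 resamples within groups. Methods were tested on simulated data. The number of arrays limits the precision.

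The 10 genes and all lists were chosen with earlier results of these data known. All 10 are named, with up to 4 called members per list and direction, and the 5 most similar genes to *Cyp7a1*, *Cyp8b1*, *Cyp7b1* and *Nr0b2*. *Hlf* was named in addition, as a D-box binding factor, and was not among the 4 largest rises of its list. Alternatives covered batch, scaling, filters, weights and single arrays. The values of likeness without 1 mouse, and of the relations without KO mouse 55 or 1, were added after the data were seen.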

Additional observations from a re-analysis of the deposited data

How the results depend on the processing

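No paired analysis was possible because each mouse gave 1 array and the groups share no mouse numbers, so no replicate block was fitted. Batch is no such number, and with batch as a fixed block 0 of the 10 genes passed for genotype at either time or over both. The number of the 10 genes that passed was 0 for genotype and for the difference of effects under every alternative run, and 4 to 5 for time in each genotype. Time and batch cannot be told apart, and 5 mice per group left intervals wide for *Cyp39a1*, *Cyp7b1* and *Nr0b2*. The calls of *Cyp7a1*, *Hsd3b7* and *Baat* with time, of *Cyp8b1* in KO and of *Nr1h4* in WT held in all 20 runs without 1 array, and that of *Nr0b2* in KO in 16 of 20.

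Signs turned only for values that did not pass, and the cause was not tested. With each array centred on its median, KO minus WT at 0 h was -0.0083 for *Cyp39a1*, the difference of effects -0.013 for *Cyp7a1*, and the KO change with time 0.018 for *Cyp27a1* and 0.058 for *Nr5a2*. With quantile normalization, KO minus WT over both times was 0.026 for *Nr1h4*, the difference of effects 0.021 for *Hsd3b7*, and the KO change with time 0.037 for *Cyp27a1*. With batch as a random block that of *Nr5a2* was 0.00015. Without WT mice 80 and 170, *Cyp39a1* was 0.079 at 12 h, 0.075 over both times and 0.0072 for the difference of effects.

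Without 1 array at a time, KO minus WT at 0 h ran from -0.42 to 0.013 for *Cyp7a1*, -0.099 to 0.013 for *Cyp8b1*, -0.024 to 0.21 for *Cyp7b1*, -0.090 to 0.081 for *Cyp39a1*, -0.067 to 0.015 for *Baat* and -0.099 to 0.018 for *Nr5a2*. For *Cyp39a1* it ran from -0.31 to 0.079 at 12 h and from -0.15 to 0.043 over both times. Over both times it ran from -0.039 to 0.032 for *Nr1h4* and from -0.024 to 0.24 for *Nr0b2*. The difference of effects ran from -0.23 to 0.19 for *Cyp7a1*, -0.31 to 0.072 for *Cyp39a1* and -0.082 to 0.027 for *Hsd3b7*, and the KO change of *Nr5a2* with time from -0.050 to 0.048.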
